A study of Mus musculus with 12 samples.

Results

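The 8 endothelin and nitric oxide genes described here, *Edn1*, *Ece1*, *Ednra*, *Ednrb*, *Nos3*, *Nostrin*, *Ddah1* and *Ddah2*, were selected by gene name from 19564 genes listed in the dim tdT or the bright tdT table, and each had 1 row in both tables. The list was chosen by name with the counts and fitted differences of these libraries already known. The values of its members are therefore given as descriptions, without p-values of their own. RNA-seq was done on cells labelled glomerular endothelial cells and sorted by the brightness of a tdTomato (tdT) reporter. The reporter sits in the ROSA26 locus and is switched on by Tek-Cre, a transgene driven by the *Tek* promoter that acts in endothelium and is also known to act in blood-forming cells. The groups were WT and AS mice, both C57BL/6, both carrying TekCre tdTomato and both 4 months of age, and the AS mice carried in addition the *Col4a5* -/- genotype, a mutated gene of a type IV collagen chain that models Alport syndrome. From each of 3 WT and 3 AS mice 1 dim tdT and 1 bright tdT library was made, which gives 12 libraries in 4 groups of 3 (WT-dim, AS-dim, WT-bright and AS-bright).

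Endothelins are small peptides that constrict vessels. Endothelial cells are a main source of endothelin, which is made as a precursor and cut to its active form by a converting enzyme. The A receptor sits mostly on smooth muscle and mesangial cells and drives contraction, while the B receptor of endothelial cells clears the peptide and is coupled to nitric oxide release. Nitric oxide is made from arginine by the endothelial synthase, relaxes vessels through cyclic GMP, and is kept in check by asymmetric dimethylarginine, an inhibitor that the DDAH enzymes break down.

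Counts on genes per library ranged from 11440169 to 15074909, and no pair of replicates was the same library (chi-square per degree of freedom 29.5 to 104). *Col4a5* had 439 to 877 counts in WT-dim and 17 to 51 in AS-dim libraries, while its 69 to 158 counts in WT-bright and 43 to 104 in AS-bright libraries overlapped, so that it checked the genotype only in the dim tdT. *Tek*, whose promoter drives the Cre, had 124 to 224 counts in WT-dim, 29 to 43 in AS-dim, 2144 to 3817 in WT-bright and 3379 to 3940 in AS-bright libraries.

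The labelled cell type was checked against markers, as the sum of their CPM (a gene's share of its library's counts, times M, the SI prefix mega) after TMM scaling over all 12 libraries. The 12 endothelial markers, such as *Pecam1*, *Cdh5* and *Kdr*, summed to 10699 to 16424 CPM in WT-bright and 15916 to 18816 in AS-bright, but only to 720 to 1341 in WT-dim and 228 to 316 in AS-dim libraries, with none of the 12 at 0 in any library. The 10 leukocyte markers, such as *Ptprc*, *Coro1a* and *Lyz2*, summed to 9311 to 14962 CPM in WT-dim and 17654 to 20769 in AS-dim libraries, while the 7 of them listed in the bright tdT table summed to 35.7 to 94 in WT-bright and 114 to 157 in AS-bright. The dim tdT libraries thus held far more leukocyte than endothelial marker RNA, against their label. Markers of the proximal tubule, 8 genes, summed to 1205 to 5668 CPM in WT-dim against 12.5 to 334 in AS-dim libraries, and to 341 to 2309 in WT-bright against 18.1 to 394 in AS-bright. The 6 podocyte markers, such as *Synpo*, summed to 622 to 1234 CPM in WT-dim, 538 to 561 in AS-dim, 965 to 1211 in WT-bright and 1345 to 1514 in AS-bright libraries. Of the 9 mesangial and smooth muscle markers, such as *Pdgfrb* and *Acta2*, the 7 listed in the dim tdT table summed to 150 to 214 CPM in WT-dim and 61.3 to 111 in AS-dim, and all 9 to 459 to 950 in WT-bright and 474 to 873 in AS-bright libraries. The 6 markers of the loop of Henle and the distal nephron, such as *Umod*, summed to 683 to 1646 CPM in WT-dim, 40.8 to 255 in AS-dim, 381 to 526 in WT-bright and 23.4 to 217 in AS-bright libraries. None of the podocyte and mesangial markers listed was at 0 in any library. In such mixed samples fewer cells of a type and less RNA per cell cannot be told apart.

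**Figure D1:**
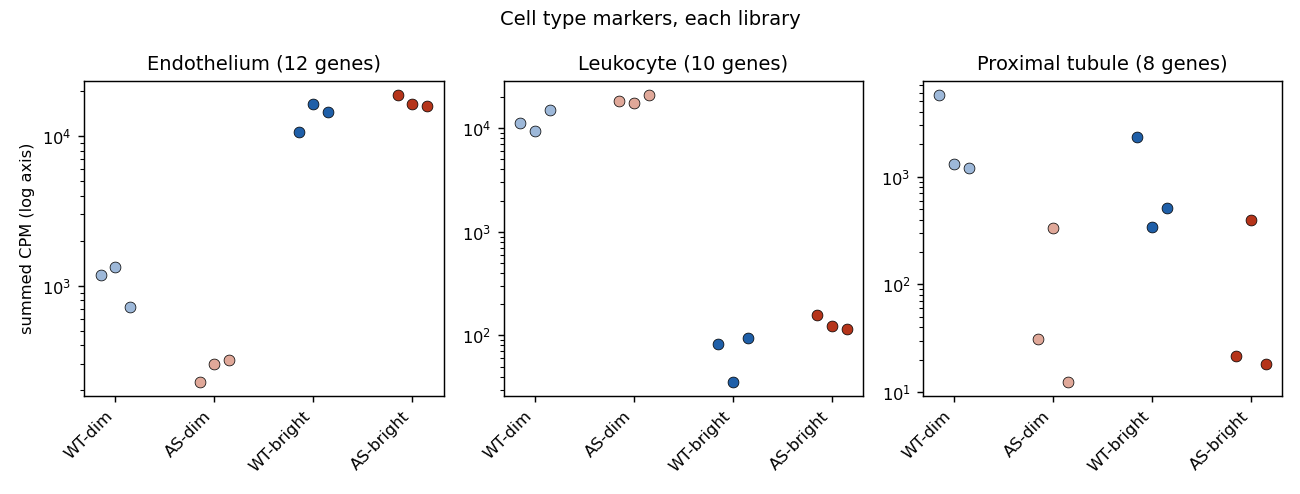
Summed CPM (log axis) of the endothelial, leukocyte and proximal tubule markers in each of the 12 libraries, with 1 point per library. Endothelial markers were at 228 to 1341 CPM in the dim tdT and 10699 to 18816 in the bright tdT libraries, leukocyte markers ran the other way (3 of the 10 are not listed in the bright tdT table), and in every AS group 1 library stood above the other 2 in proximal tubule markers.

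The members lie on 8 different chromosomes. On GRCm38, with the Gencode M21 annotation, *Edn1* is on chromosome 13 (42301476 to 42307990, plus strand), *Ece1* on chromosome 4 (137862237 to 137965229, plus), *Ednra* on chromosome 8 (77663031 to 77724464, minus) and *Ednrb* on chromosome 14 (103814625 to 103844402, minus). *Nos3* is on chromosome 5 (24364810 to 24384474, plus), *Nostrin* on chromosome 2 (69135800 to 69189330, plus), *Ddah1* on chromosome 3 (145758675 to 145894277, plus) and *Ddah2* on chromosome 17 (35059035 to 35062095, plus). All 8 are protein-coding. *Ednrb*, *Nostrin* and *Ddah2* are overlapped by no other annotated gene. The counts of the other members are uncertain in so far as reads could be shared with *Gm47118* (*Edn1*), *Gm13012* (*Ece1*), *4933431K23Rik* (*Ednra*), *Gm15587* and *Atg9b* (*Nos3*), all on the opposite strand, or with the pseudogene *Rpl36a-ps2* inside *Ddah1*. The libraries are strand-specific, but the strand that was counted is not given in the sources used here.

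RefSeq start sites (GRCm38.p6) were found for 7 of the 8 members, all but *Nos3*. The 250 bases before the start are shown for *Edn1*, *Ednrb* and *Ddah2*, a ligand, a receptor and an enzyme on which the results turn, since they took different directions between AS and WT. The *Edn1* bases (chr13:42301226-42301475, plus strand) and the *Ddah2* bases (chr17:35058785-35059034, plus strand) lie in no annotated gene. The *Ednrb* bases (chr14:103843702-103843951, minus strand) lie in an intron of a longer *Ednrb* transcript. Capitals mark CACCC, the core that KLF factors bind, on either strand, and all run 5′ to 3′.
Edn1: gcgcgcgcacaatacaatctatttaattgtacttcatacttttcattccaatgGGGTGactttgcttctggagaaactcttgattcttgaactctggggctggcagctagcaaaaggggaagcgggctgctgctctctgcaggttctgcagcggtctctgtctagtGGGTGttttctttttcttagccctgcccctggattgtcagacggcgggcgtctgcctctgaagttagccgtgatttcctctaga
Ednrb: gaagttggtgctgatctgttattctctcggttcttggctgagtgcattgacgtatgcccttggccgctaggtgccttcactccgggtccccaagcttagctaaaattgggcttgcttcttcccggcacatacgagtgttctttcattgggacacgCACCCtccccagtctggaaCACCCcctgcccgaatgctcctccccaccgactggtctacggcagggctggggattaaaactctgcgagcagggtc
Ddah2: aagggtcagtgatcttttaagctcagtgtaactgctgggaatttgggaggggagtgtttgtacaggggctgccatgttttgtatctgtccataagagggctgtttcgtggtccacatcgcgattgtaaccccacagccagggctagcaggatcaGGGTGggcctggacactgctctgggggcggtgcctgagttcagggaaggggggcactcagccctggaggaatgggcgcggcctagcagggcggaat
The core occurred at 2 places before *Edn1*, at 2 before *Ednrb* and at 1 before *Ddah2*, and 52% of the 32851 RefSeq windows of this length hold it. Of the members not shown, *Ece1* held it at 1 place before its first start site, while *Nostrin*, *Ddah1* and *Ednra* held none. TGANTCA, bound by AP-1, AGATAA, bound by GATA factors, and ACGTG, the core of the hypoxia response element, were searched on both strands too. None of these lay in the 3 windows shown, and they occur in 6.75%, 9.99% and 16.6% of all windows. No match overlapped a match of another motif. A match describes letters only and is not a binding site.

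The comparison of AS over WT asks which genes differ between the sorted tdT cells of AS and of WT mice. In the bright tdT *Ednrb* was 3.30-fold higher in AS, *Edn1* was 2.78-fold lower and *Ddah1* 3.25-fold lower, and *Ddah2* was 1.57-fold higher, each without overlap between the 3 WT and the 3 AS libraries. Of the 8 members, 1 (*Ednrb*) passed the adjusted threshold of 0.05 of edgeR's quasi-likelihood test, against 0.452% of all 14396 genes tested in either direction and 0.188% called higher. For 5 members the groups did not overlap, 3 higher and 2 lower, against 24.6% of all genes, on the scale of the 6 libraries compared (4 members, without *Ece1*, in CPM scaled over all 12). In the dim tdT, 2 of the 7 members tested (*Edn1* and *Ddah1*) passed, both lower in AS, against 8.63% of 14637 genes in either direction and 6.42% called lower. Groups did not overlap for 3 members, all lower in AS, against 31.3% of all genes. The median log2 fold change over the members was 0.36 in the bright tdT, beside -0.034 over all genes, and -1.85 in the dim tdT, beside -0.020. Markers of several other cell types were also lower in AS-dim, with 3 of 6 podocyte (1 was higher) and 5 of 5 loop and distal markers past the threshold, while 6 mesangial markers had a median log2 fold change of -1.07. The medians in the bright tdT were 0.84 for podocyte, 0.037 for mesangial, -2.66 for proximal tubule and -2.81 for loop and distal markers, short of the threshold for each gene by edgeR. The part of these cell types in the members' values was not tested.

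**Figure D2:**
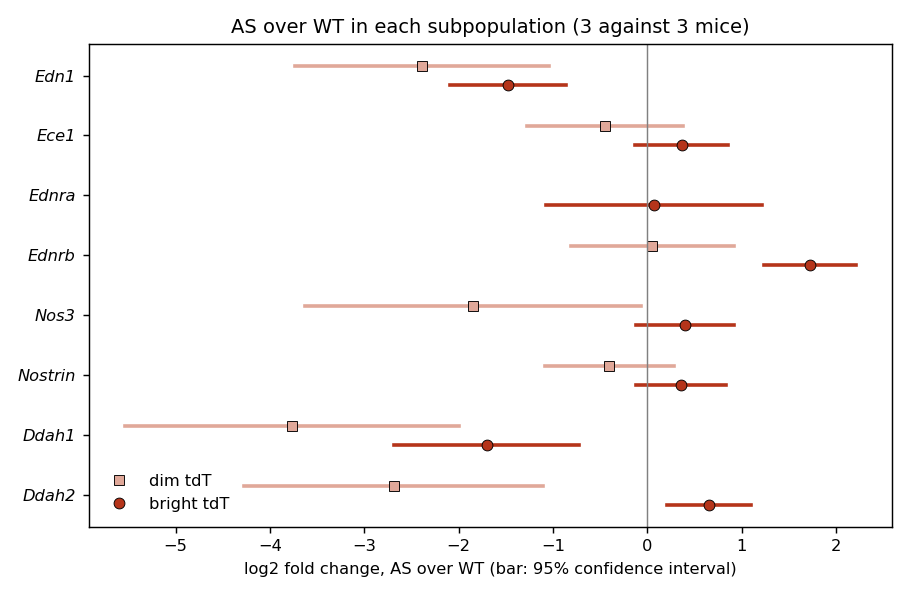
Log2 fold change of AS over WT for each member, in the dim tdT (squares) and the bright tdT (circles), with the 95% confidence interval of the fit as a bar; *Ednra* was too low to be tested in the dim tdT. *Edn1* and *Ddah1* lay below 0 in both, *Ednrb* at 0.053 in the dim and 1.72 in the bright tdT, and *Ddah2* at -2.69 and 0.65.

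*Edn1* encodes the precursor of the endothelin that endothelial cells release. In the bright tdT it had 1497, 2300 and 2007 counts in WT against 524, 632 and 926 in AS, so that every AS library lay below every WT library. These are 130 ± 34.6 and 48.9 ± 16.1 CPM (SD, n = 3 each). The log2 fold change of AS over WT was -1.48 (standard error, SE, 0.28, 95% interval -2.09 to -0.86), just short of the threshold. It passed in 4 of 16 alternatives, among them without WT-bright replicate 1 (-1.63), and with the leukocyte markers as a covariate it was -0.81 and did not. In the dim tdT the counts were 202, 206 and 87 in WT against 16, 34 and 56 in AS, again with no overlap. The log2 fold change there was -2.39 (SE 0.58, 95% interval -3.73 to -1.05), which passed. That call held in 6 of 16 alternatives. It was lost with no filter, the replicate block, the edgeR version 3 fit and the proximal tubule covariate. It was also lost without WT-dim replicate 1 (-2.19), WT-dim replicate 2 (-2.24), AS-dim replicate 1 (-2.01), AS-dim replicate 2 (-2.44) or AS-dim replicate 3 (-2.90). With the mean of the leukocyte markers as a covariate the value was 0.13. The summed markers of both covariates did not overlap between WT-dim and AS-dim libraries. Values with either covariate in the dim tdT therefore cannot separate marker RNA from genotype. The 11 endothelial markers tested in the dim tdT had a median log2 fold change of -2.21, near that of *Edn1*, with 7 lower in AS and past the threshold, and their part in the *Edn1* value was not tested. In the bright tdT the median over 12 such markers was 0.45, opposite in sign to *Edn1*.

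*Ece1* encodes the endothelin converting enzyme. In the bright tdT it had 5394, 8428 and 6943 counts in WT against 9125, 9113 and 8503 in AS. Scaled over the 6 bright tdT libraries, every AS library lay above every WT library, but in CPM scaled over all 12 libraries WT replicate 2 (601) lay above AS replicate 2 (595), so that the separation depends on the scale. The log2 fold change was 0.36 (SE 0.22, 95% interval -0.13 to 0.86). In the dim tdT it had 1160, 1474 and 589 counts in WT against 993, 604 and 1085 in AS, which overlap, with a log2 fold change of -0.45 (95% interval -1.28 to 0.37).

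*Ednrb*, the B receptor, had 3163, 3676 and 4638 counts in WT-bright and 11853, 15183 and 10844 in AS-bright libraries. The lowest AS library was above the highest WT library by more than the spread within either group. The means were 256 ± 52.7 CPM in WT and 881 ± 102 CPM in AS (SD, n = 3 each), and the log2 fold change was 1.72 (SE 0.22, 95% interval 1.23 to 2.21), which passed. The call held in 11 of 16 alternatives. It was lost with the edgeR version 3 fit (1.72), with the proximal tubule covariate (1.79) and without WT-bright replicate 3 (1.84), AS-bright replicate 1 (1.72) or AS-bright replicate 3 (1.78). Without each of these 3 libraries the count of all genes called by edgeR went from 65 to 0 (1813 to 2714 at an unadjusted p under 0.05), while the value stayed between 1.57 and 1.84 over all alternatives. *Ednrb* in the dim tdT had 175, 166 and 112 counts in WT against 132, 208 and 186 in AS, overlapping groups with a log2 fold change of 0.053 (95% interval -0.81 to 0.92). With the leukocyte markers as a covariate it was 1.56 and did not pass. *Ednra*, the A receptor, was low throughout. It had 106, 77 and 49 counts in WT-bright and 82, 36 and 123 in AS-bright libraries, with no separation (log2 fold change 0.070, 95% interval -1.07 to 1.21). Among the dim tdT libraries it had 11, 8 and 4 counts in WT against 15, 5 and 2 in AS, too few to be tested.

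*Nos3* encodes the endothelial nitric oxide synthase. It had 918, 878 and 1408 counts in WT-bright and 1489, 1297 and 1407 in AS-bright libraries. WT replicate 3 reached the AS range, and the log2 fold change was 0.40 (SE 0.24, 95% interval -0.12 to 0.92). In the dim tdT it had 60, 70 and 236 counts in WT against 85, 12 and 19 in AS. In each of these groups 1 library stood far above the other 2, the groups overlapped, and the log2 fold change of -1.85 had an interval of -3.62 to -0.070. With the leukocyte markers as a covariate it was -5.45 and did not pass. *Nostrin* encodes a protein that moves the synthase away from the plasma membrane. It had 2853, 2026 and 2509 counts in WT-bright and 3284, 3684 and 2458 in AS-bright libraries, and 293, 212 and 364 in WT-dim and 248, 228 and 264 in AS-dim. Both comparisons overlapped, at log2 fold changes of 0.35 (95% interval -0.12 to 0.83) and -0.40 (95% interval -1.09 to 0.28).

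*Ddah1* and *Ddah2* encode the enzymes that break down dimethylarginine. Both were lower in every AS-dim than in every WT-dim library, and in the bright tdT they lay in opposite directions. *Ddah2* had 1298, 1402 and 1537 counts in WT-bright and 2369, 1995 and 2259 in AS-bright libraries, all AS libraries higher, with a log2 fold change of 0.65 (SE 0.20, 95% interval 0.21 to 1.10) that did not pass. Among the dim tdT libraries it had 188, 47 and 96 counts in WT against 18, 27 and 13 in AS, all AS libraries lower. That log2 fold change was -2.69 (SE 0.69, 95% interval -4.27 to -1.10), just short of the threshold, and it passed in 5 of 16 alternatives, such as without WT-dim replicate 2 (-3.09). With the proximal tubule markers as a covariate it was -0.47 and did not pass.

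*Ddah1* had 1741, 580 and 876 counts in WT-bright and 208, 555 and 228 in AS-bright libraries. WT replicate 1 was the highest, and AS replicate 2 came close to the lowest WT library. The log2 fold change was -1.70 (SE 0.44, 95% interval -2.68 to -0.72), which did not pass, and it passed in 4 of 16 alternatives, among them without AS-bright replicate 2 (-2.22) and with the leukocyte markers as a covariate (-3.07). With the proximal tubule markers as a covariate it was -0.44 and did not pass. *Ddah1* in the dim tdT had 2557, 972 and 664 counts in WT against 128, 204 and 19 in AS, at a log2 fold change of -3.77 (SE 0.77, 95% interval -5.54 to -2.0) that passed. The call held in 10 of 16 alternatives. It was lost with the edgeR version 3 fit and both marker covariates, and without WT-dim replicate 2 (-4.00), AS-dim replicate 1 (-3.77) or AS-dim replicate 3 (-3.26). The proximal tubule markers varied with *Ddah1* (4 of 8 lower and past the threshold in AS-dim, none past it in AS-bright), with summed CPM of 5668, 1311 and 1205 in the 3 WT-dim and 31, 334 and 12.5 in the 3 AS-dim libraries, and of 2309, 341 and 507 in the 3 WT-bright and 21.7, 394 and 18.1 in the 3 AS-bright libraries. In each group the library with the most *Ddah1* was also the one with the most tubule marker RNA. With the mean of these markers as a covariate the log2 fold change of *Ddah1* was -0.67 in the dim tdT, short of the threshold, beside 0 of all genes called (930 at an unadjusted p under 0.05). The marker sums did not overlap between WT-dim and AS-dim libraries, so that this covariate cannot separate tubule RNA from genotype there. The part of tubule RNA in the *Ddah1* values was not tested beyond this.

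**Figure D3:**
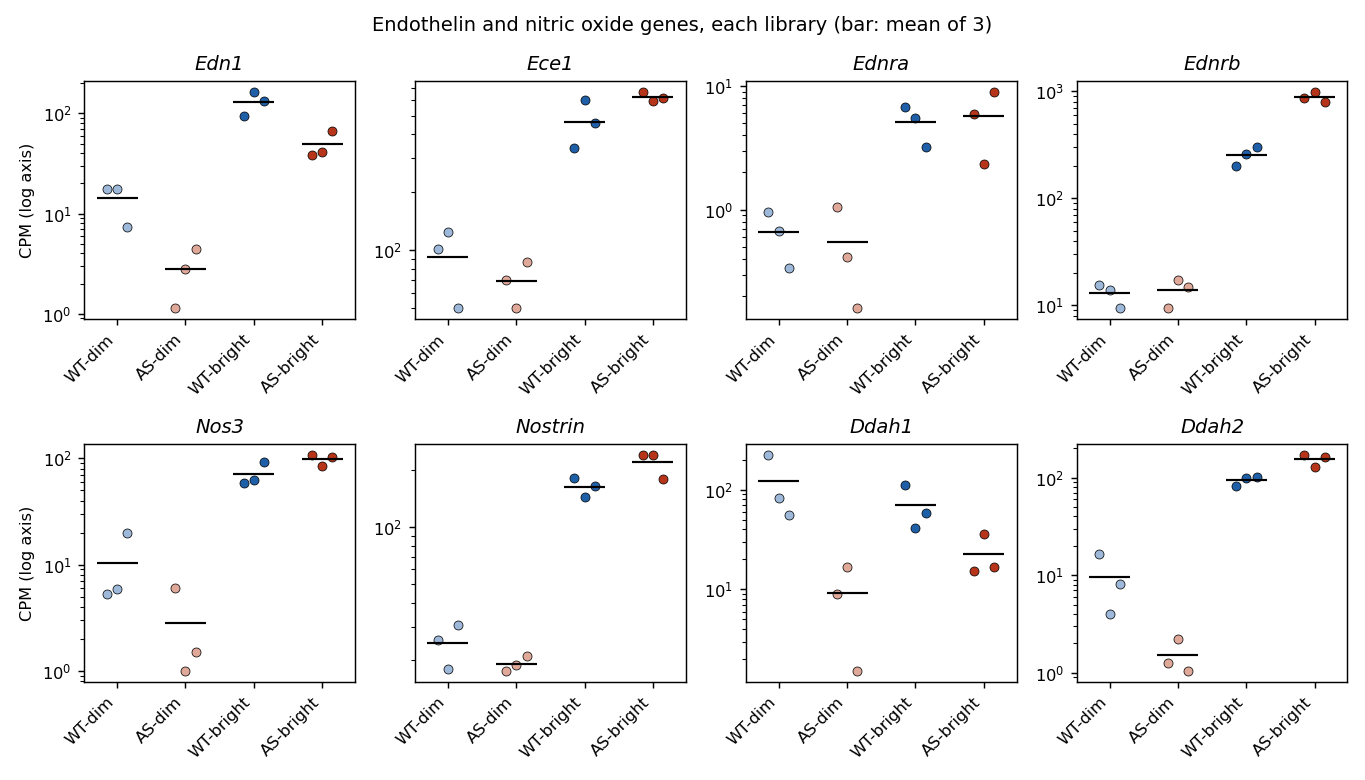
CPM (log axis, TMM over all 12 libraries) of each member in each library, with the mean of 3 libraries as a bar. *Ednrb* lies at 200 to 305 CPM in the WT-bright and 790 to 991 in the AS-bright libraries, *Edn1* is at 94.7 to 164 CPM in WT-bright and 38.2 to 67.4 in AS-bright, and *Ddah1* is the one member whose dim and bright tdT libraries share a range.

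The comparison of bright over dim tdT asks how the members differ between the subpopulations of the same mice. In WT mice 7 of the 8 members, all but *Ddah1*, were higher in the bright tdT and passed the threshold, against 25.3% of 14247 genes in either direction and 13.8% called higher. In AS mice 7 of 8, again all but *Ddah1*, were higher and passed, against 55.1% of 14052 genes in either direction and 28.6% called higher. The groups did not overlap for these 7 members in WT, against 42% of all genes, and for these 7 in AS, against 62.2%. The median log2 fold change of the members was 2.91 in WT and 3.82 in AS, beside -0.036 and 0.018 over all genes. The endothelial markers had medians of 3.63 and 6.24, with 12 of 12 higher and past the threshold in each genotype, and the leukocyte markers medians of -7.49 and -7.12, with 7 of 7 lower. The mesangial markers, of the cells in which *Ednra* is known to be expressed, had medians of 2.22 in WT, with 3 of 7 higher and past the threshold, and 3.43 in AS, with 7 of 7. Of 6 podocyte markers 1 was higher and 4 lower in WT (median -1.60), and 4 higher and 1 lower in AS (median 0.77). The part of these cell types in the members' values was not tested.

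*Ednrb* rose most among the members in WT, by a log2 fold change of 4.35 (SE 0.31), or 20.4-fold. *Ddah2* followed at 3.37 (0.45), *Edn1* at 3.25 (0.39), *Ednra* at 3.01 (0.63), *Nos3* at 2.82 (0.52), *Nostrin* at 2.77 (0.29) and *Ece1* at 2.38 (0.37), the SE in brackets. In AS mice *Ddah2* rose most, by 6.68 (0.29) or 102-fold, then *Ednrb* by 5.99 (0.27) or 63.7-fold, *Nos3* by 5.05 (0.45), *Edn1* by 4.13 (0.42), *Nostrin* by 3.51 (0.20), *Ednra* by 3.30 (0.70) and *Ece1* by 3.17 (0.22). *Ddah1* had a log2 fold change of -0.72 (95% interval -1.93 to 0.50) in WT and 1.31 (95% interval -0.037 to 2.66) in AS, with overlapping groups in both. In AS it passed without AS-dim replicate 2 (2.05) and in the fit with a replicate block on the mouse (1.46).

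The ratio of CPM within a mouse showed the same step in each animal. *Ednrb* was 13.0-fold to 32.3-fold higher in the bright than in the dim tdT of the 3 WT mice and 53.2-fold to 92.6-fold higher in the 3 AS mice, so that the mice of the 2 genotypes did not overlap. *Ddah2* had ratios of 4.98 to 25.2 in WT and 58.2 to 159 in AS mice, also apart, and *Nos3* of 4.65 to 11 and 18.1 to 85.1. *Edn1* had 5.35 to 18 in WT and 14.6 to 33.8 in AS mice, which overlap. *Ddah1* was 0.491 to 1.03 in the WT and 1.67 to 10.9 in the AS mice.

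**Figure D4:**
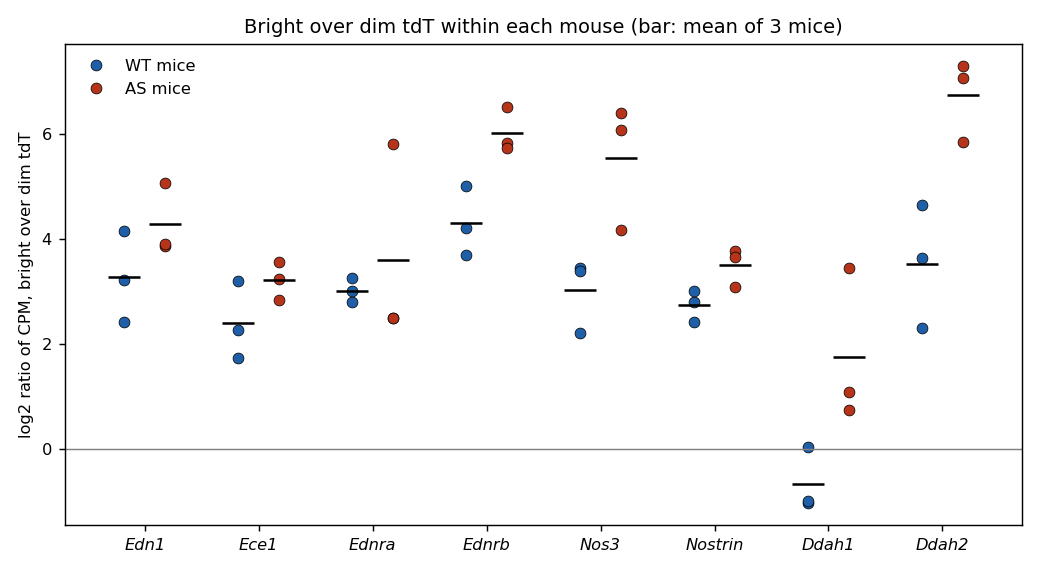
Log2 ratio of CPM in the bright over the dim tdT within each mouse, for 3 WT and 3 AS mice, with the mean as a bar. All 6 mice lie above 0 for every member but *Ddah1*, where the 3 WT mice lie between -1.03 and 0.041.

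The difference of AS over WT between the subpopulations was fitted over all 12 libraries. Of the 8 members, 2 passed, both with a higher AS over WT change in the bright than in the dim tdT, against 3.77% of 15084 genes in either direction and 2.96% called higher. These were *Ddah2*, with a log2 difference of 3.37 (SE 0.60, 95% interval 2.07 to 4.67), and *Ednrb*, with 1.70 (SE 0.37, 95% interval 0.90 to 2.49). A replicate block on the mouse gave 877 in place of 569 genes, and again 2 members. *Ddah2* passed under all 19 alternatives, and *Ednrb* lost the call without WT-dim replicate 1 (1.56), AS-dim replicate 1 (1.48), AS-bright replicate 1 (1.71) or AS-bright replicate 2 (1.47). *Nos3* had 2.29 (95% interval 0.65 to 3.94) and passed only without AS-dim replicate 1 (3.51). The endothelial markers had a median difference of 2.59, with 8 of 12 higher and past the threshold, the podocyte markers one of 2.44, with 5 of 6, and the mesangial and proximal tubule markers 1.29 and 1.71, with none past it, while the median over all genes was 0.13. The part of these cell types in the *Ddah2* and *Ednrb* values was not tested. *Edn1* (0.94, 95% interval -0.39 to 2.26) was lower in AS in both subpopulations, and its interval includes 0.

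Since endothelial marker RNA differed so much between the groups, the members were also expressed per 1000 CPM of the 12 summed endothelial markers, a ratio added after the values had been seen. *Ednrb* then had 12.2 ± 1.51 in WT-dim and 48.5 ± 8.29 in AS-dim, and 18.6 ± 2.56 in WT-bright and 51.9 ± 7.39 in AS-bright libraries (SD, n = 3 each). On this ratio AS lay above WT in both subpopulations without overlap, whereas per library total the AS-dim and WT-dim libraries overlapped. The same held in the dim tdT for *Nostrin* (25.9 ± 15.1 in WT and 68.9 ± 7.30 in AS) and *Ece1*, and the marker sum by which all are divided was 1080 ± 322 CPM in WT-dim and 281 ± 47.1 in AS-dim libraries. *Edn1* had 9.31 ± 0.59 in WT-bright and 2.92 ± 1.16 in AS-bright, with no overlap, and 12.7 ± 2.44 in WT-dim and 9.5 ± 4.59 in AS-dim, which overlap. *Ddah2* had 6.91 ± 0.80 in WT-bright and 9.14 ± 1.22 in AS-bright libraries, without overlap, but 9.40 ± 5.74 in WT-dim and 5.44 ± 2.09 in AS-dim, which overlap, unlike its CPM. The bright tdT values of *Nos3* were 5.21 ± 1.31 in WT and 5.78 ± 0.65 in AS, with overlap. *Ece1* had 33.3 ± 2.81 in WT-bright and 36.8 ± 1.88 in AS-bright libraries, which overlap, and 82.7 ± 12.4 in WT-dim and 250 ± 74.0 in AS-dim, which do not. *Ddah1* had 110 ± 70.3 in WT-dim and 33.6 ± 26.3 in AS-dim. In the bright tdT it had 5.60 ± 4.13 in WT and 1.35 ± 0.75 in AS, with no overlap in either subpopulation. The mean ratio was higher in the dim than in the bright tdT of both genotypes for *Ece1*, *Ddah1*, *Edn1*, *Ednra*, *Nos3* and *Nostrin*. It was lower in both for *Ednrb*, and higher in WT but lower in AS for *Ddah2*.

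Levels of different genes were compared per gene length, on the RPKM of the authors (reads per kilobase and M reads). In WT-bright libraries *Ece1* (77.7 ± 18.9), *Nostrin* (68.4 ± 10.1) and *Edn1* (61.5 ± 14.2) led and overlapped as neighbours, followed by *Ddah2* (26.1 ± 2.29) and *Ednrb* (24.1 ± 4.64), which overlapped, by *Ddah1* (10.7 ± 5.90) and *Nos3* (9.18 ± 2.43), which overlapped, and by *Ednra* (0.77 ± 0.28). In AS-bright libraries the leaders were *Ece1* (102 ± 5.60), *Nostrin* (88.9 ± 14.9) and *Ednrb* (80.6 ± 10.1), neighbours that overlapped, then *Ddah2* (41.7 ± 5.78), *Edn1* (22.5 ± 7.17), *Nos3* (12.3 ± 1.48), *Ddah1* (3.34 ± 1.77) and *Ednra* (0.83 ± 0.47), each below the one before without overlap. *Ednrb* thus stood below *Edn1* in WT-bright and above it in AS-bright libraries. In WT-dim libraries *Ddah1* (17.1 ± 12.4), *Ece1* (14.6 ± 6.26), *Nostrin* (9.72 ± 2.42), *Edn1* (6.34 ± 2.65), *Ddah2* (2.45 ± 1.59), *Nos3* (1.26 ± 1.01) and *Ednrb* (1.15 ± 0.27) each overlapped the next, and *Ednra* (0.093 ± 0.043) was below them. In AS-dim libraries *Ece1* (11.5 ± 3.10) and *Nostrin* (7.93 ± 0.68) stood above the other 6, which had means of 0.082 to 1.38.

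**Figure D5:**
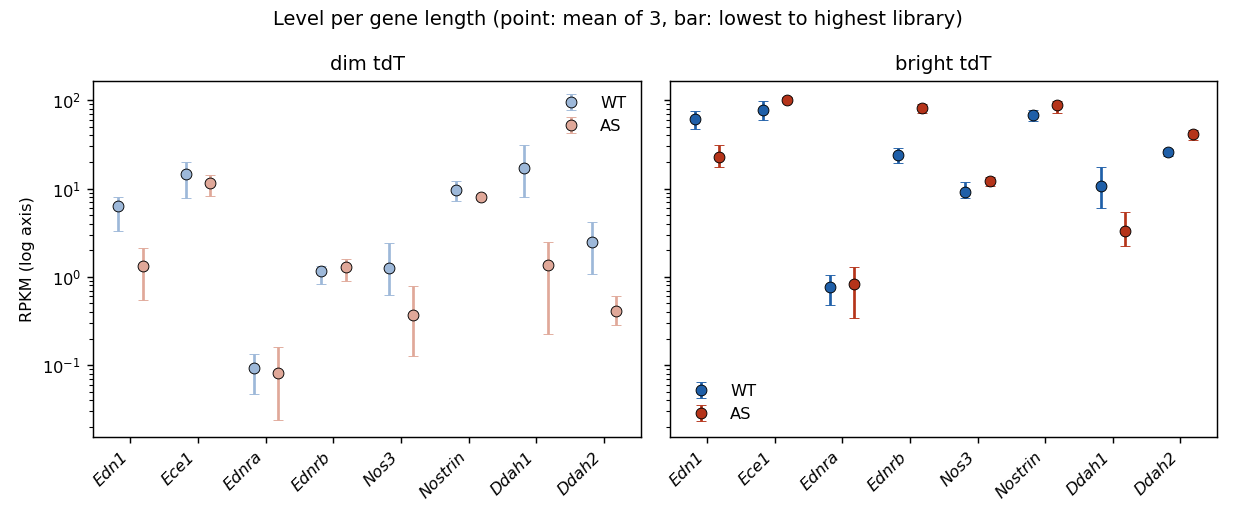
RPKM (log axis) of each member in the dim and the bright tdT libraries, with the mean of 3 WT or 3 AS libraries as a point and the lowest and highest library as the ends of the bar. In the bright tdT *Edn1* and *Ednrb* change places between WT (61.5 and 24.1) and AS (22.5 and 80.6).

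Other genes of both systems were taken from 4 lists of 48 genes. The other ligands and enzymes of the endothelin system were mostly out of view, since *Edn2*, *Edn3*, *Ece2*, *Ecel1* and *Kel* are listed in neither table. *Mme*, the gene of neprilysin, which degrades endothelin, had 249, 178 and 413 counts in WT-dim and 113, 95 and 75 in AS-dim libraries and fell by 1.74 on the log2 scale (SE 0.40, adjusted p = 0.0374 by edgeR). The inducible synthase *Nos2* is listed in the bright tdT table only, with 29 to 114 counts in WT against 155 to 197 in AS libraries, and did not pass (log2 fold change 1.19, SE 0.46, adjusted p = 0.170 by edgeR).

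For AS over WT in the dim tdT, 4 of the 37 genes tested on these lists fell and passed (10.8%, beside 8.63% of all genes), with 1 on each list. Beside *Mme* these were *Cav1*, the caveolin that binds and holds the synthase inactive (log2 fold change -3.38, SE 0.62, adjusted p = 0.0230 by edgeR), *Ass1*, an enzyme that rebuilds arginine (-2.69, 0.61, adjusted p = 0.0368 by edgeR), and *Pde3a*, a phosphodiesterase inhibited by cyclic GMP (-1.11, 0.28, adjusted p = 0.0456 by edgeR). *Ass1* had 7702, 2203 and 1889 counts in WT-dim and 494, 1012 and 559 in AS-dim libraries. It is known to be abundant in the proximal tubule, 4 of whose 8 markers were also lower and past the threshold, and the part of tubule RNA in its value was not tested. With the leukocyte markers as a covariate the value was 0.70 for *Ass1*, -0.99 for *Cav1* and -2.88 for *Mme*, and none of them passed. Over 16 alternatives the calls held in 7 for *Mme*, 11 for *Cav1*, 9 for *Ass1* and 4 for *Pde3a*, and leaving out any 1 of the 3 AS-dim libraries ended each of the 4. Without 1 of them the values were -1.85 to -1.61 for *Mme*, -3.73 to -3.07 for *Cav1*, -3.17 to -2.46 for *Ass1* and -1.33 to -1.02 for *Pde3a*. *Mme* also lost its call without WT-dim replicate 1 (-1.79) or 3 (-1.38), and *Pde3a* without WT-dim replicate 1 (-1.18) or 2 (-1.0). In the bright tdT 1 of 38 passed, *Calm3*, a calmodulin gene, calmodulin being the switch of the synthase. It had 311, 309 and 254 counts in WT against 977, 961 and 733 in AS libraries and rose by a log2 fold change of 1.61 (SE 0.24, adjusted p = 0.0345 by edgeR). That call held in 9 of 16 alternatives. It was lost with the replicate block, the edgeR version 3 fit and both marker covariates, and without WT-bright replicate 3 (1.48), AS-bright replicate 1 (1.49) or AS-bright replicate 3 (1.70).

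For bright over dim tdT, 9 of 35 list genes passed in WT, 7 higher and 2 lower (25.7%, beside 25.3% of all genes), and 25 of 34 in AS, 17 higher and 8 lower (73.5%, beside 55.1%). Among the partners of the synthase *Cav1* and *Dynll1*, a dynein light chain that binds the neuronal synthase, rose most. *Cav1* had log2 fold changes of 2.68 in WT and 6.61 in AS (adjusted p = 0.00225 and 6.35e-08 by edgeR), and *Dynll1* of 1.76 and 1.95 (adjusted p = 0.00199 and 2.22e-05 by edgeR). Of the receptor side, *Gucy1a1* and *Gucy1b1*, the subunits of the guanylate cyclase that senses nitric oxide, rose in AS by 3.50 and 3.64 (adjusted p = 2.09e-05 and 0.000104 by edgeR), while in WT *Gucy1a1* (2.07, adjusted p = 0.0413 by edgeR) and *Prkg1*, a cyclic GMP-dependent kinase (2.39, adjusted p = 0.0176 by edgeR), rose. The call of *Gucy1a1* in WT held in 7 of 13 alternatives, and of the 6 libraries only WT-dim replicate 1 could be left out without ending it (1.60 to 2.28 without the others). *Prkg1* lost its call in WT without WT-dim replicate 2 (2.42), WT-dim replicate 3 (2.15) or WT-bright replicate 2 (2.01).

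The gene of the feedback regulator of the cofactor enzyme, *Gchfr*, had 200, 24 and 29 counts in WT-dim but 0, 1 and 0 in AS-dim libraries, and 214, 115 and 215 in WT-bright and 171, 189 and 181 in AS-bright. Over the 3 AS-bright against the 3 AS-dim libraries the ratio was 490, with an exact interval of 87.6 to 19386 that covers counting error only, for reads pooled over 3 mice a group, and not the spread between mice. Its fitted fold changes depend on the prior count.

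The genes most like *Nos3* and *Ednrb* over the 12 libraries, among 12651 genes, were found by Pearson's r of log2 CPM. For *Nos3* these were *Gpr182* (0.988), *Ippk* (0.978) and *Siah1a* (0.976), and for *Ednrb* they were *Git1* (0.992), *Sh3bp5* (0.991) and *Akap12* (0.988). The libraries fall into a dim and a bright tdT cluster, so that these values describe mainly that step, and no test was made of them.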

How the data were processed

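RNA-seq covered 12 libraries, a dim tdT and a bright tdT one of each of 6 mice. Reads were aligned by the authors with STAR (2.6.0c in the submitters' processing notes) to GRCm38.p5 (annotation Gencode M16). Raw counts of reads on genes were deposited, with 1 table per subpopulation (17811 and 17521 genes). The RPKM of the authors (counts scaled by gene length and by library) were used here only to set levels of different genes side by side. Deposited log2 fold changes, logCPM, likelihood ratio statistics, p-values and FDR of AS over WT were not used, and ERCC spike-ins (0.0286% to 0.282% of counts) were left out.

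Counts were tested with edgeR 4.0.16 in R 4.3.3 (filterByExpr, TMM, the quasi-likelihood test of edgeR version 4, Benjamini-Hochberg adjustment over all genes tested, threshold 0.05). AS over WT used the 6 libraries of a table, bright over dim tdT the 6 libraries of a genotype, and the difference between subpopulations all 12. CPM were scaled by TMM over all 12 libraries, so that they differ slightly from the scale of each fit. *Ednra* passed the filter on low counts in all fits but AS over WT in the dim tdT, and the other 7 members in every fit. Pairing of dim with bright tdT rests on the mouse number that the labels give both libraries. The main fits had no term for the mouse, so that their p-values measure the spread between libraries within a group. The mouse entered the ratios within a mouse and the replicate block. Deviations from the group means correlated across genes at 0.0936 to 0.301 (WT) and 0.105 to 0.462 (AS) within a mouse. For dim and bright tdT libraries of different mice they correlated at -0.245 to 0.0278 (WT) and -0.348 to 0.245 (AS). The ranges within and between mice thus overlapped in AS.

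The members and the lists were chosen with earlier results of these data known. Named were all 8 members, every list gene that passed in AS over WT or in the difference between subpopulations, per list the 2 largest log2 fold changes that passed for bright over dim tdT, the 3 genes most like *Nos3* and *Ednrb*, *Col4a5* and *Tek*. *Nos2* was named after its values had been seen. Some list genes are counted with their lists but not reported here. The tests were checked on simulated data. Alternatives were RLE normalization, library sizes alone, no filter, DESeq2 1.42.0, the likelihood ratio test, a replicate block, each library left out and, for AS over WT, 1 fit of all 12 libraries and a marker covariate. Summed leukocyte markers did not overlap between WT and AS in either subpopulation, nor did summed proximal tubule markers in the dim tdT. These covariates largely follow the genotype there, and values fitted with them cannot separate marker RNA from genotype. The quasi-likelihood fit of edgeR version 3 was added after the data had been seen. Of 2 dim tdT rows named *Itgam*, a leukocyte marker, the one with the longer gene was used. Coordinates came from Gencode M21 and start sites from RefSeq, both on the GRCm38 build of the files.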

Additional observations from a re-analysis of the deposited data

Results flagged for a closer look

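For 5 of the genes reported here the AS over WT change differed between the bright and the dim tdT in the fit of all 12 libraries (edgeR's quasi-likelihood test). *Ddah2* (log2 difference 3.37) and *Ednrb* (1.70) are 2 of the 8 members. The other 3 are *Cav1* (3.98, adjusted p = 0.00432 by edgeR), *Calm3* (1.77, adjusted p = 0.0235 by edgeR) and *Gchfr* (7.78, adjusted p = 0.0357 by edgeR). *Cav1* was lower in every AS-dim than in every WT-dim library and higher in every AS-bright than in every WT-bright library. *Gchfr* had 1 count over the 3 AS-dim libraries, so that its fitted difference depends on the prior count. Over 19 alternatives *Cav1* passed in 19, *Calm3* in 13 and *Gchfr* in 10.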

How the results depend on the processing

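Of 600 alternative values of the members 548 kept direction and side of the threshold, 24 no longer passed, 16 newly passed and 12 changed sign; of 598 for list genes the numbers were 487, 110, 0 and 1. For bright over dim tdT 7 or 8 members passed under every alternative, of 2534 to 4444 genes in WT and 6651 to 7755 in AS. AS over WT depended on the settings far more. In the dim tdT 1263 genes and 2 members passed, and DESeq2 gave 2213 genes, the edgeR version 3 fit 582 and 0 members, 1 fit of all 12 libraries 2106, no filter 1 member, and the proximal tubule or the leukocyte covariate 0 genes and 0 members each (930 and 1876 genes at an unadjusted p under 0.05). For the bright tdT 65 genes and 1 member passed, and no filter gave 39 genes, DESeq2 1117 and 3 members, the likelihood ratio test 897 and 3, library sizes alone 2 members, the edgeR version 3 fit 0 and 0 (2906 at an unadjusted p under 0.05), all 12 libraries 139, the proximal tubule covariate 0 and 0 (1205 unadjusted) and the leukocyte covariate 626 and 2. For the difference between subpopulations, 569 genes in the main test, DESeq2 gave 1186 and the likelihood ratio test 1092, and the median over all genes was 0.13, or -0.030 with library sizes alone. Each library left out gave 0 to 1825 genes and 0 to 2 members in the dim tdT, 0 to 281 and 0 to 2 in the bright tdT, and 252 to 857 and 1 to 2 for the difference. No gene passed without AS-dim replicate 1, and none without WT-bright replicate 3, AS-bright replicate 1 or AS-bright replicate 3 (1813 to 2972 unadjusted), and 1 passed without AS-dim replicate 3. The cause was not tested.

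The sign changed for *Edn1* (0.13), *Ece1* (1.18) and *Ass1* (0.70) in the dim tdT and for *Nostrin* (-0.11) in the bright tdT with the leukocyte covariate, and for *Ednra* in the bright tdT with the proximal tubule covariate (-0.71). It changed with a library left out for *Ednrb* in the dim tdT (range -0.18 to 0.25), *Ednra* in the bright tdT (-0.42 to 0.47), *Ddah1* for bright over dim tdT in WT (-1.24 to 0.064) and *Ednra* in the difference (-0.10 to 1.33). None of these members had passed except *Edn1*. The leukocyte covariate largely follows the genotype in both subpopulations, so that sign changes under it cannot separate leukocyte RNA from genotype.

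A replicate block on the mouse left 7 members for bright over dim tdT in WT and gave 8 in AS, and 877 genes for the difference. WT and AS mice share only a number, and for them the block gave 494 genes and 1 member in the dim tdT and 16 genes and 1 member in the bright tdT; deviations of libraries with the same number correlated at -0.142 to 0.0576 in the dim and -0.205 to 0.152 in the bright tdT. With 3 mice a group, and counts under 20 in the dim tdT for *Ednra* and in some AS-dim libraries for *Nos3*, *Ddah1*, *Ddah2* and *Edn1*, smaller differences were not detectable.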
